A study of Solanum lycopersicum with 21 samples.

Results

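A set of 6 genes of photorespiration was followed in tomato leaf, out of 35039 IDs in the deposited count table. The members are listed as glycolate oxidases (Solyc07g056540 and Solyc10g007600), the P and T proteins of glycine decarboxylase (Solyc08g065220 and Solyc02g080810), serine-glyoxylate aminotransferase (Solyc12g099930) and hydroxypyruvate reductase (Solyc01g111630). They were picked by locus ID and by these names, and the rule uses no measured value. The count table pairs no ID with a gene name, and 0 of its IDs matched the RefSeq gene table used here, so the names are those of the member list and other genes of the pathway were not analysed here. The number after Solyc in each ID is its chromosome, which places the 6 loci on chromosomes 7, 10, 8, 2, 12 and 1. Start and end positions are not given in the table.

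Photorespiration recovers carbon after Rubisco has fixed oxygen in place of carbon dioxide. Glycolate made in the chloroplast is oxidised to glyoxylate in the peroxisome by glycolate oxidase, and glyoxylate is converted to glycine. In the mitochondrion the glycine decarboxylase complex, whose P protein releases carbon dioxide from glycine and whose T protein passes the remaining methylene group to tetrahydrofolate, takes part in turning glycine into serine. Back in the peroxisome, serine-glyoxylate aminotransferase makes hydroxypyruvate from serine, and hydroxypyruvate reductase turns it into glycerate. In leaves the flux through this cycle is second to that of photosynthesis.

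Leaf RNA of the cultivar M82 was sequenced in 21 libraries, 3 for each of 7 groups. Wild-type plants and the strigolactone-depleted line 6936 were sampled under irrigation (time label 0), after rewatering from 1 drought (recovery 1, label 31) and after rewatering from a second drought (recovery 2, label 76), and the labels give no unit for these times. A further wild-type group was irrigated and sprayed with GR24 5DS, a synthetic strigolactone analogue, at 5 µM, 24 h before sampling (label 24). The labels name no group sprayed without GR24, and the time label of irrigated wild type is 0. GR24, the spraying itself and the sampling time therefore cannot be told apart. In line 6936 the strigolactone synthesis gene CCD7 is silenced, and per the labels strigolactone in roots and root exudates is 70 to 80% lower, with no value for leaves. This is 1 line, so an effect of the line and an effect of the hormone cannot be told apart. The recovery groups were sampled at other times than the irrigated ones, so that drought history and time cannot be told apart either. Per the labels a replicate held at least 3 leaves, 1 per plant, and 5 plants are named per condition. If those 5 plants served all 3 replicates of a group, replicates must have shared plants. The p-values below would then understate the error. The labels do not say which plants went into which replicate. No leaf marker could be checked by name.

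Total counts per library ran from 19267602 to 35433511. The 6 genes together took between 0.720 and 1.60% of a library's counts. Libraries that stood apart in the first 2 principal components were the 3 sprayed ones (second component −49.9 to −104.9) and replicate 16 of the depleted line at recovery 1 (first component −11.1, against −90.9 and −69.7 in replicates 17 and 12). At the other end of the second component lay the 3 irrigated wild-type libraries (35.5 to 54.0), followed by irrigated depleted replicate 6 (30.0). Values are counts per 1e6 reads (CPM) with TMM scaling factors, as mean ± SD of 3 libraries, and fold changes are log2 with their standard error (SE) from edgeR's quasi-likelihood test over 20373 IDs. A gene was called changed at an adjusted p under 0.05. Gene lengths were not in the files, so levels are compared between libraries and not between genes. In bulk leaf RNA, fewer cells of a type and less RNA per cell cannot be told apart.

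**Figure D1:**
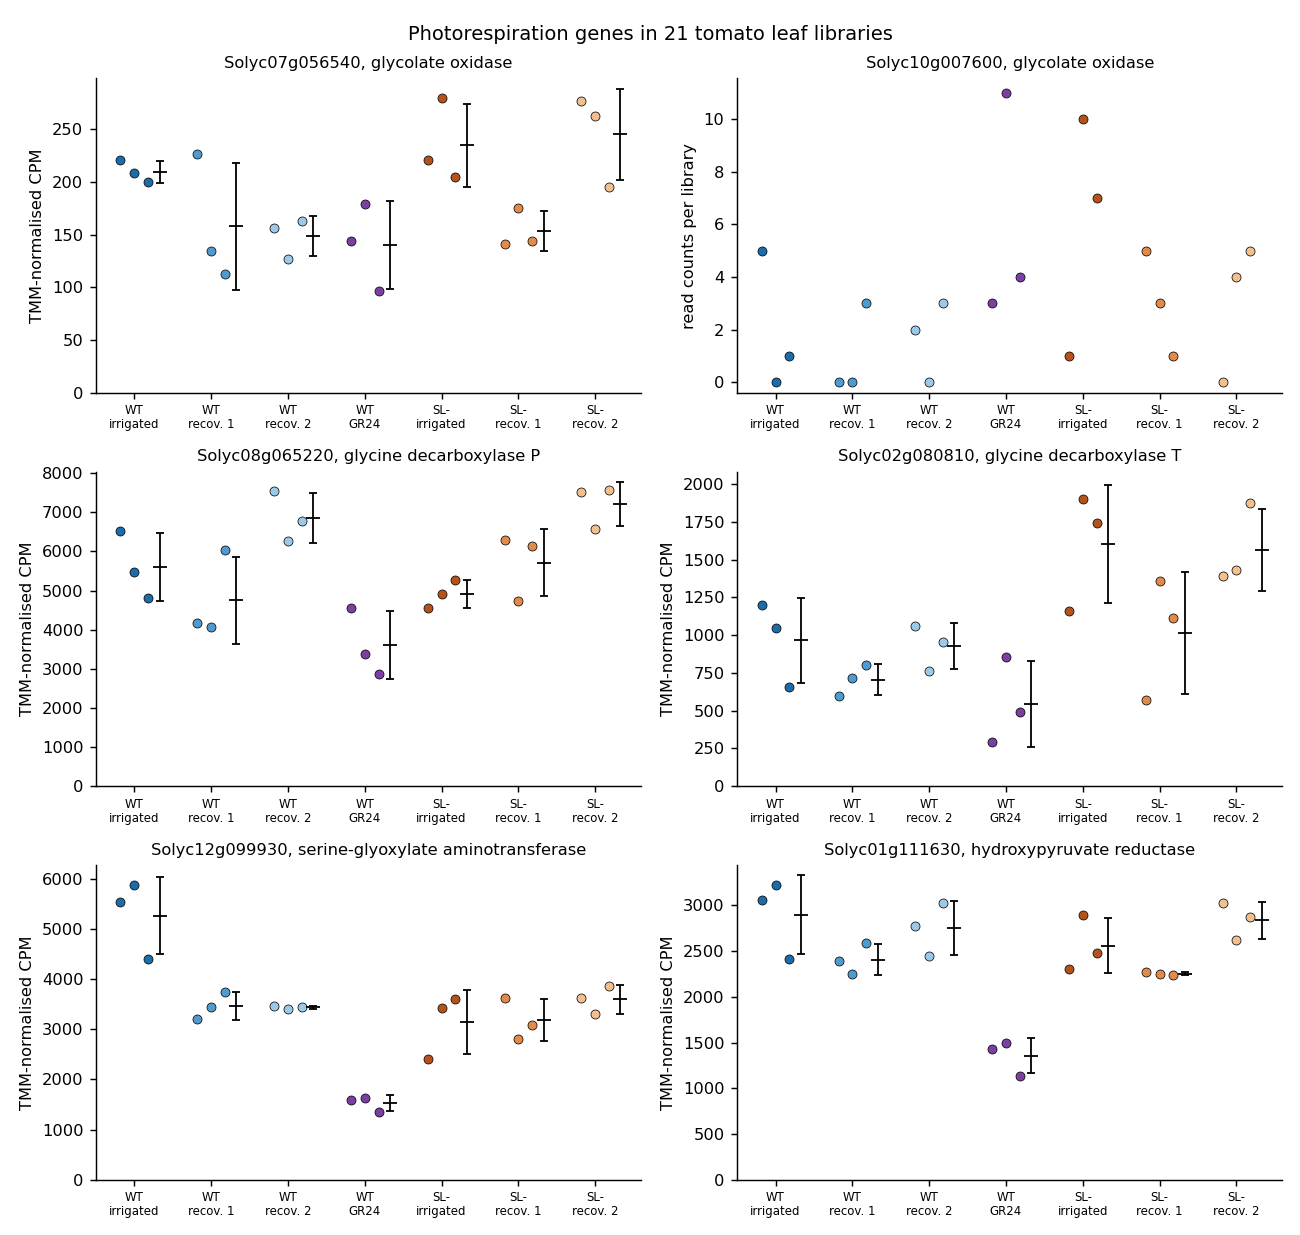
Level of each gene in every library, by group, with TMM-normalised CPM on the vertical axis (read counts for Solyc10g007600). Points are libraries, the bars beside them are the mean ± SD of 3 libraries, WT is the wild type and SL- the depleted line. The GR24-sprayed libraries were the lowest for the aminotransferase (1350 to 1638 CPM) and for the reductase (1137 to 1500 CPM).

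Of the 2 glycolate oxidase loci, Solyc10g007600 lay near the floor of detection. It had 68 counts over all 21 libraries, with 0 counts in 5 libraries and at most 11 in any one. A library's floor of 3 counts corresponded to 0.0847 to 0.156 CPM, and 13 of its 21 values lay at or under 3 counts. It did not pass the filter on low counts and was not tested in the fit of all libraries. Its counts summed to 36 over the 9 depleted libraries, to 14 over the 9 unsprayed wild-type libraries and to 18 over the 3 sprayed libraries. In a fit without the filter, the genotype difference averaged over the 3 conditions was not called (log2 1.61, edgeR adjusted p = 0.104). With 1 library left out the filter asks for fewer libraries, and the gene passed it for 19 of the 21 libraries. It was then called higher in the depleted line in this average without depleted recovery 2 replicate 13, wild-type recovery 1 replicate 4 or irrigated wild-type replicate 6 (edgeR adjusted p = 0.0441, 0.0231 and 0.0371). Its highest counts, 10 in irrigated depleted replicate 6 and 11 in sprayed replicate 9, let it pass. The former lies in the depleted line itself, so these calls are no evidence of a difference. The sources used here do not say how reads shared by close paralogs were counted.

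Solyc07g056540 was read in every library, between 96.3 and 279 CPM. Its means ran from 245 ± 43.6 CPM in the depleted line at recovery 2, through 235 ± 39.4 in the irrigated depleted line and 210 ± 10.5 in irrigated wild type, down to 140 ± 41.7 in sprayed wild type (SD, n = 3 each). In that order every group overlapped its neighbour. The other 4 genes also passed the filter, so 5 of the 6 genes were tested.

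Of the 5 tested genes, 3 were lower in GR24-sprayed than in irrigated wild type and none was called higher: the aminotransferase, the reductase and the P protein. Across all IDs tested, 27.8% were called in this comparison, and 13.3% were called lower. The 5 genes had a median log2 fold change of −0.83, against 0.07 over all 20373 IDs. The 5 values ranged from −1.79 to −0.58, and all 5 had an unadjusted p under 0.05, as did 40.0% of all IDs. Before any scaling, the 6 genes took 0.829 ± 0.142% of the counts of a sprayed library and 1.46 ± 0.0760% of those of an irrigated wild-type library (SD, n = 3 each), without overlap. A low share was not particular to the spray. In the unsprayed irrigated depleted line it was 1.01 ± 0.0630% (0.949 to 1.075%), which overlapped the sprayed libraries (0.720 to 0.990%). The other unsprayed groups lay above them. The sprayed libraries also stood apart over all IDs, and what part that has in these values was not tested.

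Serine-glyoxylate aminotransferase, which feeds serine back into the peroxisomal part of the cycle, differed most among the 5 in log2 fold change. Its levels were 1589, 1638 and 1350 CPM in sprayed replicates 8, 9 and 11. Irrigated wild type stood at 5535, 5874 and 4401 CPM in replicates 6, 7 and 14. The groups did not overlap, and the sprayed mean was 3.45-fold lower (log2 −1.79 ± 0.19 SE, edgeR adjusted p = 9.99e-06, lower in 3 of 3 libraries).

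Hydroxypyruvate reductase, which makes glycerate, stood at 1428, 1500 and 1137 CPM in the sprayed libraries. The irrigated wild-type libraries held 3056, 3229 and 2413 CPM. Here too the groups were apart, by 2.14-fold (log2 −1.10 ± 0.17 SE, edgeR adjusted p = 0.000213). Both this gene and the aminotransferase remained called in all 26 alternative settings, with log2 fold changes of −1.22 to −0.99 and −1.90 to −1.70.

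The glycine decarboxylase P protein was at 4561, 3381 and 2877 CPM after spray, against 6528, 5483 and 4807 CPM without it. The highest sprayed library lay just under the lowest irrigated one. Its log2 fold change was −0.64 ± 0.22 (SE), and it was called with an edgeR adjusted p of 0.0388. The call rested on single libraries, since the adjusted p was 0.0848 and 0.155 without sprayed replicates 9 and 11, and 0.147 and 0.0844 without irrigated replicates 6 and 7. It was 0.208 with the 2 groups fitted alone and 0.0544 without the low-count filter.

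The T protein was at 290, 853 and 488 CPM in sprayed replicates 8, 9 and 11, a wide spread for its level. In irrigated wild type it held 1200, 1047 and 654 CPM, so the groups overlapped. Its log2 fold change of −0.83 ± 0.36 (SE) was not called (edgeR adjusted p = 0.0913). Without sprayed replicate 9 it was −1.31 (adjusted p = 0.0135), and DESeq2 gave an adjusted p of 0.0492. The glycolate oxidase Solyc07g056540 stood at 144, 179 and 96.3 CPM against 221, 209 and 200 CPM, without overlap. Its log2 fold change of −0.58 ± 0.24 (SE) was not called (edgeR adjusted p = 0.0834), and without sprayed replicate 9 or wild-type recovery 1 replicate 1 the adjusted p was 0.0334 or 0.0431.

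Sprayed leaves were also set against groups that share no library with irrigated wild type, a choice made after the values were seen. For the reductase the 18 unsprayed libraries of all groups held 2243 to 3229 CPM, above each sprayed library. For the aminotransferase they held 2415 to 5874 CPM, likewise above. The reductase was 1.78-fold lower than in wild type at recovery 1, 2.03-fold lower than at recovery 2 and 1.89-fold lower than in the irrigated depleted line (edgeR adjusted p = 0.00315, 0.000546 and 0.00121). For the aminotransferase those differences were 2.27-fold, 2.25-fold and 2.06-fold (edgeR adjusted p = 0.000549, 0.000394 and 0.000957). These comparisons called 2, 3 and 4 of the 5 genes, all of them lower, where 18.8, 26.1 and 27.3% of all IDs were called and 9.30, 10.8 and 14.4% were called lower. The 3 comparisons share the sprayed libraries with each other and with the one above. The P protein was the third gene against recovery 2 (log2 −0.93 ± 0.22 SE). The T protein and Solyc07g056540 were called against the irrigated depleted line (log2 −1.56 ± 0.36 and −0.75 ± 0.25 SE). With only the compared groups fitted, the counts were 1, 2 and 0 in place of 2, 3 and 4. The reductase was then not called against recovery 1 or the irrigated depleted line (adjusted p = 0.0811 and 0.0889), nor the aminotransferase against that line (adjusted p = 0.0795). The call of Solyc07g056540 was also lost without irrigated depleted replicate 6 or sprayed replicates 8 or 11 (adjusted p = 0.133, 0.0725 and 0.137), and the T protein was called against recovery 2 without sprayed replicate 9 (adjusted p = 0.0206).

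**Figure D2:**
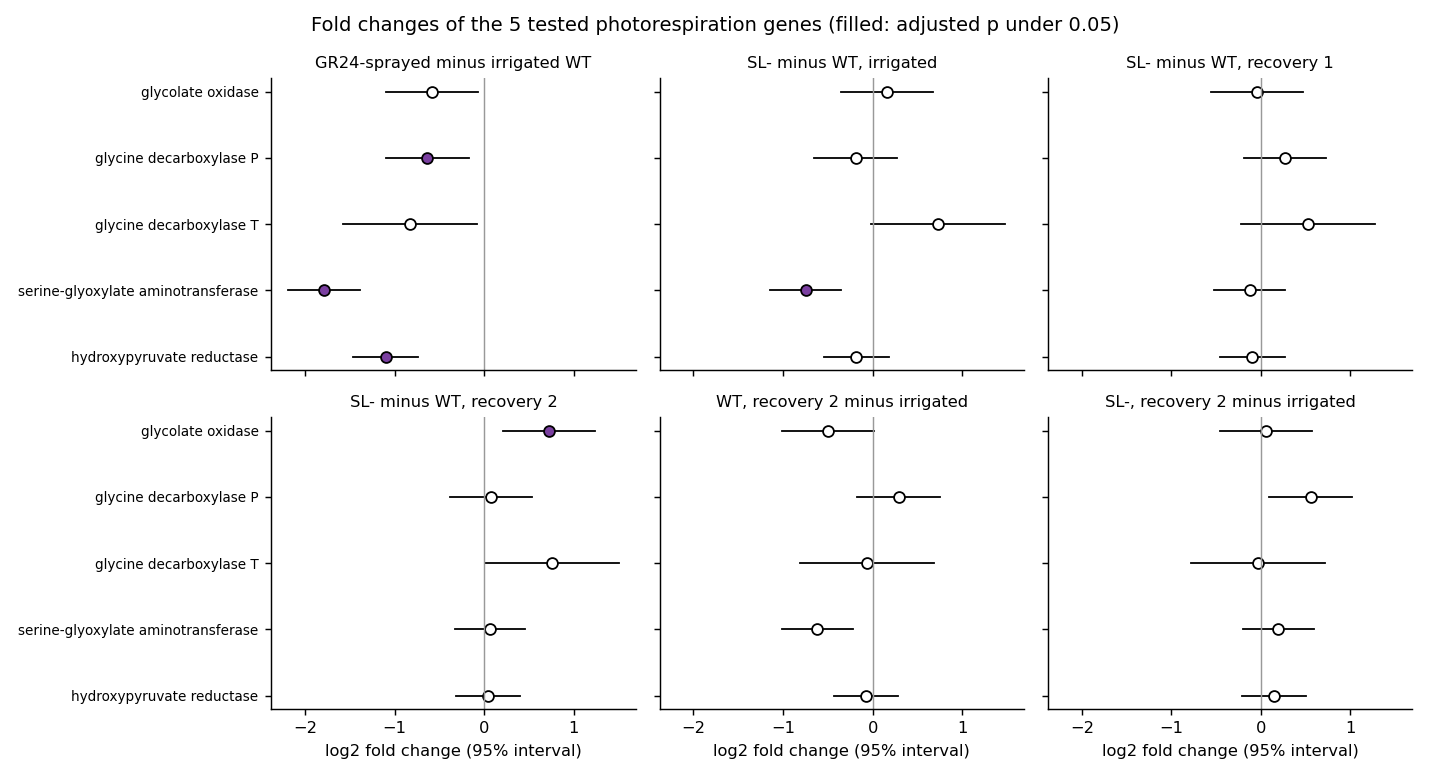
Log2 fold change of the 5 tested genes in 6 comparisons, with 95% intervals from the edgeR fit, and filled points where the adjusted p was under 0.05. The 5 values of the spray comparison all lie below 0, and the genotype panels each hold at most 1 filled point.

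Between genotypes, under irrigation, 1 of the 5 genes differed, the aminotransferase, which was lower in the depleted line, while 34.4% of all IDs were called. Its level in depleted replicates 3, 6 and 7 was 2415, 3423 and 3597 CPM, below each of the irrigated wild-type values of 4401 to 5874 CPM. The difference was 1.68-fold (log2 −0.75 ± 0.19 SE, edgeR adjusted p = 0.00597), and with the 2 groups fitted alone the adjusted p was 0.0549. The irrigated wild-type libraries in this difference are the same as in the spray comparison. The median of the 5 genes was −0.18, against 0.03 over all IDs.

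At recovery 1 edgeR called 0 of the 5 genes between genotypes, and 19.6% of all IDs. DESeq2 called 0 too, with 25.6% of all IDs, and 0 of the 5 had an unadjusted p under 0.05, with 34.0% of all IDs. The aminotransferase was then at 3633, 2810 and 3094 CPM in depleted replicates 16, 17 and 12 and at 3207, 3451 and 3751 CPM in wild-type replicates 1, 13 and 4. The groups overlapped, and the log2 difference was −0.13 with a 95% interval of −0.52 to 0.27.

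At recovery 2 the glycolate oxidase Solyc07g056540 was higher in the depleted line, and it was the 1 gene of the 5 called, where 26.6% of all IDs were. It stood at 277, 263 and 195 CPM in depleted replicates 13, 11 and 8 and at 156, 127 and 163 CPM in wild-type replicates 8, 11 and 9. The groups did not overlap (log2 0.72 ± 0.25 SE, edgeR adjusted p = 0.0370). This call was near the threshold and was lost in 9 of 27 alternative settings. The adjusted p was 0.117 and 0.105 without depleted replicates 13 and 11, and 0.0687, 0.131 and 0.0658 without wild-type replicates 8, 11 and 9. It was 0.0549 without replicate 12 of the depleted line at recovery 1, 0.0625 with upper-quartile factors and 0.0501 without the low-count filter. With only the compared groups fitted and a block on the replicate number it was 0.146. In that fit only replicates 8 and 11, whose numbers both genotypes share, inform the difference.

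The T protein was higher in the depleted line when the 3 conditions were averaged. Over the 9 depleted libraries it ranged from 573 to 1903 CPM with a median of 1389 CPM, and over the 9 unsprayed wild-type libraries from 597 to 1200 CPM with a median of 799 CPM. The ranges overlapped, and depleted recovery 1 replicate 16, at 573 CPM, lay below every wild-type library. The averaged difference was 1.59-fold (log2 0.67 ± 0.21 SE, edgeR adjusted p = 0.0113), and it was called in all 26 alternative settings. Without replicate 16 it was 0.76 on the log2 scale (adjusted p = 0.00314). In single conditions it was not called: log2 was 0.73 ± 0.36 under irrigation, 0.53 ± 0.35 at recovery 1 and 0.76 ± 0.36 at recovery 2 (SE, edgeR adjusted p = 0.122, 0.311 and 0.123).

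Of the 5 genes, 2 were called in this average, where 52.5% of all IDs were. The second was the aminotransferase, lower by 0.27 ± 0.11 on the log2 scale (SE, edgeR adjusted p = 0.0451). By condition its log2 difference was −0.75 under irrigation, −0.13 at recovery 1 and 0.07 at recovery 2. The edgeR adjusted p was 0.00597, 0.6685 and 0.822 in that order, so only the irrigated difference was called. The averaged call of the aminotransferase was lost without any 1 of 12 libraries, with log2 values of −0.29 to −0.22 and adjusted p of 0.0511 to 0.0925. Those libraries were depleted replicate 3 under irrigation, 17 and 12 at recovery 1 and 13 and 11 at recovery 2, and wild-type replicates 6 and 7 under irrigation, 13 and 4 at recovery 1 and 8, 11 and 9 at recovery 2. The P protein, with a log2 difference of 0.05 (95% interval −0.22 to 0.32), and the reductase, with −0.08 (−0.28 to 0.13), were not called. Solyc07g056540 was at 0.28 ± 0.14 (SE, edgeR adjusted p = 0.102), and at 0.40 without wild-type recovery 1 replicate 1 (adjusted p = 0.0137).

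The ratio of P to T protein counts differed between the genotypes. In the average over the 3 conditions the P protein differed by log2 0.05 and the T protein by 0.67. The ratio is thus not a result apart from the T protein call. In that average 52.5% of all IDs were called, and ratios of other gene pairs were not tested as a background. The number of P protein counts per T protein count within a library needs no scaling between libraries. It was 3.94, 2.58 and 3.02 in depleted replicates 3, 6 and 7 under irrigation and 5.44, 5.24 and 7.35 in wild-type replicates 6, 7 and 14. At recovery 2 it was 5.41, 4.60 and 4.04 in the depleted line and 7.12, 8.23 and 7.08 in the wild type. In both conditions the genotypes did not overlap.

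At recovery 1 the ratio was 10.97, 3.48 and 5.52 in depleted replicates 16, 17 and 12 and 6.98, 5.65 and 7.55 in the wild type, and the groups overlapped through replicate 16. Averaged over the 3 conditions the log2 ratio was 0.59 lower in the depleted line (−0.591, mean 2.15 against 2.74). A two-sided exact permutation test of the genotype within conditions gave p = 0.0110, and 0.0220 adjusted over the 2 planned ratios. Without replicate 16 the difference was −0.74 with an exact permutation p = 0.00025, the smallest this test can give. Without replicate 17 of the same group it was −0.46 (exact permutation p = 0.037). Sprayed wild type spread widely, at 15.7, 3.96 and 5.89, and did not differ from irrigated wild type beyond that spread (exact permutation p = 0.8, where 3 against 3 can reach 0.1).

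**Figure D3:**
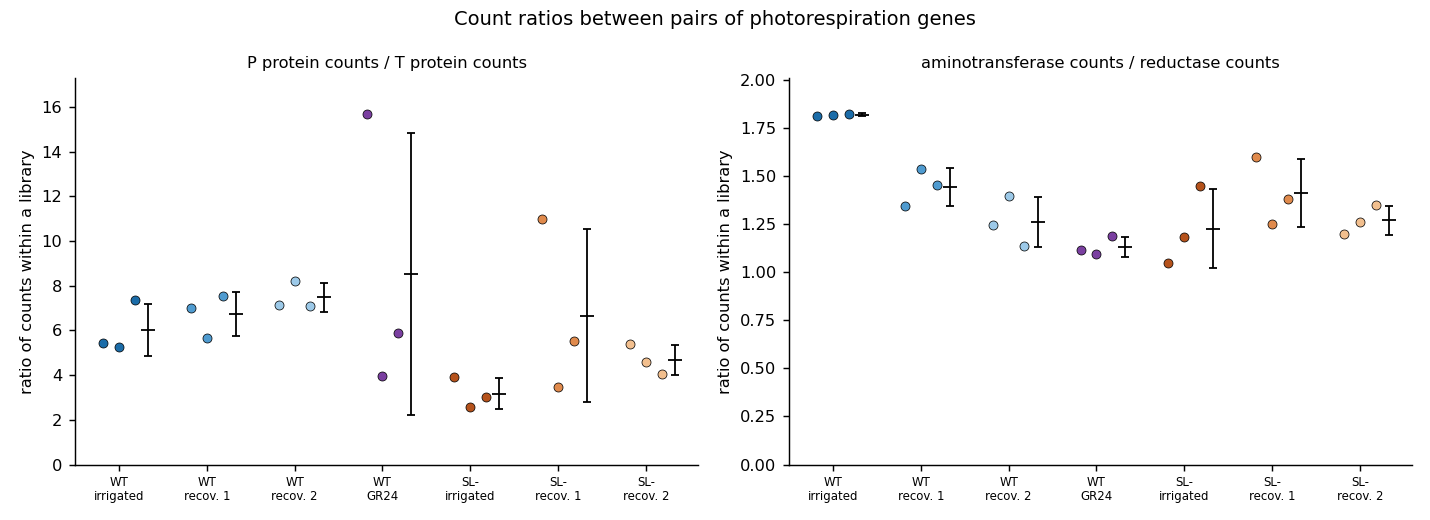
Ratio of read counts of 2 genes within each library, for P over T protein (left) and aminotransferase over reductase (right). Points are libraries and bars the mean ± SD of 3 libraries. The P to T ratio is lower in the irrigated depleted line (2.58 to 3.94) than in irrigated wild type (5.24 to 7.35), and the aminotransferase to reductase ratio is highest in irrigated wild type (1.81 to 1.82).

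Aminotransferase and reductase act one after the other, and their ratio was added after the values were seen. It was 1.81, 1.82 and 1.82 in the irrigated wild-type replicates 6, 7 and 14, above each of the other 18 libraries, which held 1.05 to 1.60. Sprayed libraries held 1.11, 1.09 and 1.19. Against irrigated wild type the log2 ratio was 0.69 lower in sprayed leaves (−0.686, exact permutation p = 0.1, the smallest that 3 against 3 allows). Over the 3 conditions the genotype difference was −0.20 on the log2 scale, which missed the threshold (exact permutation p = 0.0555, 0.0833 adjusted over 3 ratios). The ratio of the glycolate oxidases, with 1 count added to both, did not pass either (log2 −1.05, exact permutation p = 0.0875).

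Against irrigation, edgeR called none of the 5 genes at either recovery in either genotype, while DESeq2 called 1 in each genotype at recovery 2. In the wild type at recovery 1, edgeR called 0 of the 5 genes and 0% of all IDs. DESeq2 called 0 of the 5 and 0.157% of all IDs, and 1 gene had an unadjusted p under 0.05, as did 6.77% of all IDs. At recovery 2 edgeR called 0 of the 5 and 4.89% of all IDs. DESeq2 called 1 and 12.3%, and 1 gene, with 24.5% of all IDs, had an unadjusted p under 0.05. That gene was the aminotransferase each time. Its levels of 3207, 3451 and 3751 CPM at recovery 1 and 3460, 3413 and 3443 CPM at recovery 2 lay below the 4401 to 5874 CPM of irrigated wild type without overlap.

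The aminotransferase log2 fold changes were −0.60 ± 0.19 at recovery 1 and −0.62 ± 0.19 at recovery 2 (SE, edgeR adjusted p = 0.628 and 0.0625). At recovery 2 the adjusted p was 0.0465 without irrigated replicate 14, 0.0454 without replicate 3 of the irrigated depleted line, and 0.00379 by DESeq2. These responses, the irrigated genotype difference and the spray difference all use the same 3 irrigated wild-type libraries. Leaving out irrigated wild type and the sprayed group, the 15 libraries of the other 5 groups held 2415 to 3867 CPM, and the order of those 5 group means (3598 ± 283 to 3145 ± 638 CPM, SD, n = 3) had overlap between all neighbours.

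In the depleted line edgeR called 0 of the 5 genes at recovery 1, where 8.41% of all IDs were called, and 0 at recovery 2, where 10.4% were. DESeq2 called 0 and 1, where it called 13.7 and 15.4% of all IDs. At each recovery 1 gene reached an unadjusted p under 0.05, against 24.2 and 26.6% of all IDs. The P protein was at 4565, 4911 and 5270 CPM under irrigation and at 7511, 6571 and 7574 CPM at recovery 2, without overlap. Its log2 fold change was 0.55 ± 0.22 (SE, edgeR adjusted p = 0.114, DESeq2 adjusted p = 0.0286). In the wild type the P protein was at 7544, 6264 and 6772 CPM at recovery 2, which overlapped irrigation (log2 0.29 ± 0.22 SE). Its means ordered the groups from the depleted line at recovery 2 (7218 ± 562 CPM) and the wild type at recovery 2 (6860 ± 645 CPM) down to sprayed wild type (3606 ± 864 CPM), and every group overlapped its neighbour in that order.

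Solyc07g056540 stood at 141, 176 and 144 CPM in depleted recovery 1 replicates 16, 17 and 12, below the 205 to 279 CPM of the irrigated depleted line. The log2 fold change of −0.61 ± 0.24 (SE) was not called (edgeR adjusted p = 0.130). Between the recoveries edgeR called 0 of the 5 genes in each genotype, where the share of all IDs called was 0.304% for wild type and 0% for the depleted line. DESeq2 also called 0 of the 5, with 3.11 and 0.123% of all IDs. In each genotype 1 gene reached an unadjusted p under 0.05, against 14.2 and 8.58% of all IDs, the P protein in the wild type (log2 0.53 ± 0.22 SE) and Solyc07g056540 in the depleted line (0.68 ± 0.25 SE).

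Whether the genotypes differed in their response to recovery was tested as an interaction. At recovery 1 edgeR called 0 of the 5 genes, with 1.51% of all IDs called. DESeq2 called 0, with 4.26% of all IDs, and 1 had an unadjusted p under 0.05, with 11.9% of all IDs. At recovery 2 it called 0 of the 5, with 6.95% of all IDs called. DESeq2 called 1, with 11.5% of all IDs, and 1 had an unadjusted p under 0.05, with 22.9% of all IDs. The largest value at recovery 2 was again the aminotransferase, at 0.81 ± 0.27 (log2, SE, edgeR adjusted p = 0.0735, DESeq2 adjusted p = 0.00596). At recovery 1 it was 0.62 ± 0.26 (edgeR adjusted p = 0.340). The reductase gave 0.08 and 0.22, with 95% intervals of −0.42 to 0.59 and −0.28 to 0.73.

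Hydroxypyruvate reductase was also the gene of the 5 whose level followed the other 4 most closely. Likeness was measured as the smaller of 2 Pearson's r between a gene's log2 CPM and the mean z-score of the other 4 genes, over the 12 wild-type and over the 9 depleted libraries, as a description. For the reductase r was 0.96 and 0.95, the highest smaller r of 20369 IDs compared. The aminotransferase had 0.89 and 0.46 and the T protein 0.71 and 0.48. Solyc07g056540 had 0.46 and 0.51, and the P protein 0.70 and 0.25. Their ranks were 1023, 1018, 1079 and 2663. The wild-type values and the ranks hold the sprayed libraries, which stood apart, and no rank was computed without them. Over the 9 unsprayed wild-type libraries r was 0.89 for the reductase, 0.79 for the T protein and 0.60 for the aminotransferase. It was 0.30 for the P protein and 0.19 for Solyc07g056540. Libraries share depth and group, and nothing is read from these values about shared control.

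**Figure D4:**
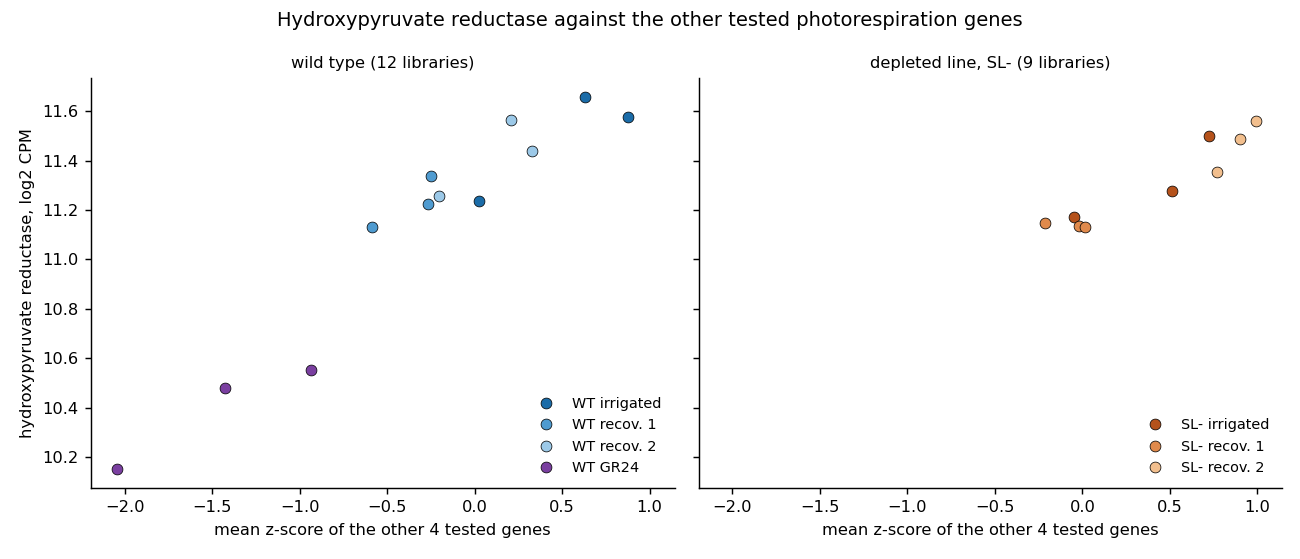
Level of hydroxypyruvate reductase (log2 CPM) against the mean z-score of the other 4 tested genes, 1 point per library, for 12 wild-type libraries (left) and 9 depleted libraries (right). The reductase rises with the other genes in both panels (r = 0.96 and 0.95, and 0.89 over the unsprayed wild type), and the 3 sprayed libraries are the lowest on both axes.

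The 3 other IDs most like the mean profile of the 5 tested genes, none of which the files pair with a name, were Solyc02g084440.3, Solyc02g091560.3 and Solyc03g093180.1. Their r was 0.94 and 0.94, 0.94 and 0.93, and 0.98 and 0.93 over the 12 wild-type and the 9 depleted libraries. Over the 9 unsprayed wild-type libraries it was 0.81, 0.86 and 0.92.

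Between pairs of single genes, none of 20 relations (10 pairs in each of 2 genotypes, over 9 unsprayed libraries) passed after adjustment. The T protein and the reductase had the highest value in the wild type, with Pearson's r = 0.87 and Spearman's rho = 0.87 (exact permutation p = 0.00428 and 0.00451, adjusted 0.0856 and 0.0902). Without the 2 libraries farthest from the median of the T protein r was again 0.87. In the depleted line the highest were Solyc07g056540 and the reductase, with r = 0.76 and rho = 0.82 (exact permutation p = 0.0220 and 0.0108, adjusted 0.137 and 0.107), and r = 0.65 without the 2 farthest libraries. The P and T proteins, subunits of 1 complex, had r = 0.76 and rho = 0.77 in the wild type (exact permutation p = 0.0219 and 0.0214, adjusted 0.137 and 0.107), and r = 0.61 without the 2 farthest libraries. In the depleted line they had r = −0.04 and rho = 0.18 (exact permutation p = 0.932 and 0.644, adjusted 0.951 and 0.885), and r = −0.14 without the 2 farthest libraries. The difference between those correlations was not tested.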

How the data were processed

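Leaf RNA of 21 libraries was counted per gene. The authors deposited 1 table of whole-number counts without normalisation. The submitters' processing notes name HISAT2 for alignment and HTSeq for counting; the sources used here give no version, setting or genome build. Per the labels' protocols libraries were made with a NEBNext Ultra RNA kit, an unstranded method in which overlapping antisense genes cannot be told apart. A further 6 columns of the table match no labelled sample and were not used. Groups and replicate numbers were taken from the sample titles.

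The test on counts was that of edgeR 4.0.16 (R 4.3.3), after filterByExpr on the 7 groups (20373 IDs kept), TMM factors, 1 robust quasi-likelihood fit of all 21 libraries, 11 contrasts of groups or their means, 2 interactions and 3 spray contrasts added after the values were seen, with Benjamini-Hochberg adjustment over all IDs tested. SE is the log2 fold change over the root of F. The fit was tested on simulated data. No replicate pair agreed within sampling noise (chi-square per degree of freedom 28.9 to 334). Floors of 3 counts cover counting error only. Alternatives were RLE and upper-quartile factors, no filter, the compared groups alone, DESeq2 1.42.0, a replicate block and leaving out each library. The genes named were the members and the 3 IDs most like their mean profile, for which the planned mean of 6 members became that of the 5 that passed the filter. The planned ratio of the glycolate oxidases without a pseudocount could not be computed, because Solyc10g007600 had 0 counts in 5 libraries, and 1 count was added. Members and lists were chosen with earlier results of these data known.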

Additional observations from a re-analysis of the deposited data

How the results depend on the processing

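Over the 16 comparisons, none of the 16 called values of the 5 tested genes changed sign under an alternative, and 17 of the 64 values that were not called did so in at least 1. The number of genes called between genotypes under irrigation was 1. It came to 0 when only the compared groups were fitted and to 2 with a replicate block added to that fit, where the T protein was added (adjusted p = 0.0233). With the block only replicates 6 and 7, whose numbers both genotypes share, inform that difference. At recovery 2 the number called was 1, and was 0 with upper-quartile factors, 0 without the low-count filter, 2 with the compared groups alone, where the T protein was added (adjusted p = 0.0243), and 0 with a replicate block added to that fit. Leaving out 1 library gave 0 to 1. For the average over conditions it was 2, and 1 to 3 with 1 library left out, counting Solyc10g007600 where it passed the filter. For wild-type recovery 2 against irrigation it was 0, then 1 with DESeq2 and 0 to 1 with 1 library left out. DESeq2 gave 1 in place of 0 for the depleted line at recovery 2 and 1 for the interaction at recovery 2. For the spray it was 3, and 2 to 4 with 1 library left out. Against wild-type recovery 1 and the irrigated depleted line it was 2 and 4, and 1 and 0 with the compared groups alone. The log2 ratio of the glycolate oxidases was −1.38 to −0.82 and that of aminotransferase to reductase −0.24 to −0.17 with 1 library left out. Some of these passed the threshold: the oxidases without depleted recovery 2 replicate 13 or wild-type recovery 1 replicate 4, and the other ratio without depleted replicate 16 of recovery 1 or 8 of recovery 2, or wild-type replicate 1 of recovery 1 or 9 of recovery 2. The P to T ratio kept its call, at −0.74 to −0.46. The cause of these changes was not tested. Whether the replicate numbers shared between the genotypes (6 and 7 under irrigation, 8 and 11 at recovery 2) pair the libraries is not known. Same-numbered libraries deviated from their group means with r of 0.065, −0.045, −0.015 and 0.024. For libraries with other numbers r was −0.181 to 0.199. With 3 libraries per group these values cannot settle it. Depth limits Solyc10g007600, which lay near its floor.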
